A study of Saccharomyces cerevisiae BY4741 with 4 samples.

Results

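Ribosome biogenesis factors were followed in the RNA of Saccharomyces cerevisiae BY4741, a wild-type haploid laboratory strain of budding yeast. Cells had been grown in YPD, a rich glucose medium, at 30 °C to an OD600 of 0.6, and RNA from 2 biological replicates was sequenced per fraction, as total RNA or as poly(A) RNA. For the poly(A) fraction, oligo-dT capture was followed by removal of leftover rRNA. Strain, genotype, medium and growth stage were the same for all 4 libraries, so the fraction was the only labelled difference. The genes were chosen by name. They were single rows of the count table whose RefSeq symbol was NOP, UTP, RRP, NOC, RRB, NUG or IMP followed by a number. The snoRNP core proteins NOP1, NOP10, NOP56 and NOP58 were left out. That gave 59 genes of 7382 rows, 23 with a UTP or IMP symbol and 36 others.

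Ribosome assembly begins on the long pre-rRNA made by RNA polymerase I in the nucleolus. There the small-subunit processome, built from the U3 snoRNP and the UTP proteins, folds and cleaves the part that becomes 18S rRNA. A separate set of factors matures the large subunit around the 25S and 5.8S rRNAs, and the exosome, a ring of proteins with attached nucleases, trims 3′ ends and degrades spacers. In budding yeast the genes for these factors form a large regulon that is transcribed strongly in fast growth.

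The symbols did not mark a single pathway. Of the 59 genes, 56 encode proteins known to act in ribosome assembly or in the exosome. The other 3 do not: IMP1 and IMP2 encode the catalytic subunits of the mitochondrial inner membrane peptidase, and IMP21 encodes a transcriptional activator linked to sugar utilisation. By role, 29 genes belonged to the processome and small-subunit assembly, 18 to large-subunit assembly, 2 to both and 7 to the exosome. The UTP and IMP symbols covered 20 of the 29 small-subunit genes, and the remainder were RRP7, RRP3, RRP9, RRP36, NOP6, NOP9, NOP14, NOP19 and NOC4.

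Promoters showed the shared feature most plainly. PAC and RRPE are promoter elements known for ribosome biogenesis genes in budding yeast, and their cores were searched on both strands, overlapping matches included. The PAC core was taken as GATGAG. For the RRPE core the letters were AAAATTTT, which read the same on both strands. The window ran from 250 bases before to 50 bases after the gene's start in the RefSeq genome of build R64. The PAC core was found in 47 of the 59 promoters (79.7%) against 1222 of 6001 promoters of nuclear coding genes (20.4%). The RRPE core was found in 34 (57.6%) against 542 (9.03%), and both in 30 (50.8%) against 263 (4.38%). The median PAC core lay 112.5 bases before the start in these genes and 113 bases before it in all promoters. For RRPE the distances were 133 and 136.5 bases. These medians include cores in the 50 bases after the start. With only the bases before the start, they were 115 and 131 for PAC and 133 and 139 for RRPE.

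The stretch around both cores is shown for the 3 genes with the lowest fold changes of the 59, and for 3 of those with high ones, so that both ends of the range described below can be compared. Each is written 5′ to 3′ in the direction of transcription, with 10 flanking bases on each side of the closest pair of cores, and capitals mark every PAC and RRPE core.
UTP20, chrII:227442-227479, plus strand: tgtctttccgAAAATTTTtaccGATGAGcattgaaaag
RRP14, chrXI:282449-282503, minus strand: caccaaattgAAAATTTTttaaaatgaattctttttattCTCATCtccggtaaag
UTP10, chrX:217394-217435, minus strand: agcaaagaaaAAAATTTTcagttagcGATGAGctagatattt
IMP4, chrXIV:485450-485496, plus strand: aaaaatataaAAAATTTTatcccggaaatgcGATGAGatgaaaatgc
UTP23, chrXV:333472-333539, plus strand: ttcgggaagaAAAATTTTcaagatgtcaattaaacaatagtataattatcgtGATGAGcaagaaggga
NOP7, chrVII:695266-695303, plus strand: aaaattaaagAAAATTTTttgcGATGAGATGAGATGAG
In each of these 6 stretches the RRPE core came first and the PAC core lay nearer the gene. The order was not fixed among the 59 genes. In RRP15, also high in fold change, the PAC core lay 222 and the RRPE core 119 bases before the start. PAC also came first in the closest pairs of NOP14 and UTP5. Outside its stretch, NOP7 had a further RRPE core 104 bases before the start, nearer the gene than its PAC cores. RRP14 had 3 PAC cores, which began 135, 95 and 1 bases before the start. Only the first is in its stretch, on the opposite strand. NOP7 carried 3 PAC cores that overlap, the last 2 of them in what is otherwise flank.

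Motifs were unevenly spread over the roles. Of the 18 large-subunit genes 17 had the PAC core, as did 14 of the 15 small-subunit genes outside the named subcomplexes and all 4 UTP-B genes. Only 3 of 7 exosome genes had it, 1 had the RRPE core and 0 had both. The 8 genes with neither core were IMP1, IMP2, IMP21, the exosome ring genes RRP42, RRP45 and RRP46, UTP22 and UTP30. The 3 genes outside ribosome assembly were thus all among those without a core. Among 105 other ribosome biogenesis genes with symbols outside the pattern, 93 (88.6%) had PAC, 79 (75.2%) had RRPE and 71 (67.6%) had both. A match describes letters in a window, not a bound site.

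**Figure D1:**
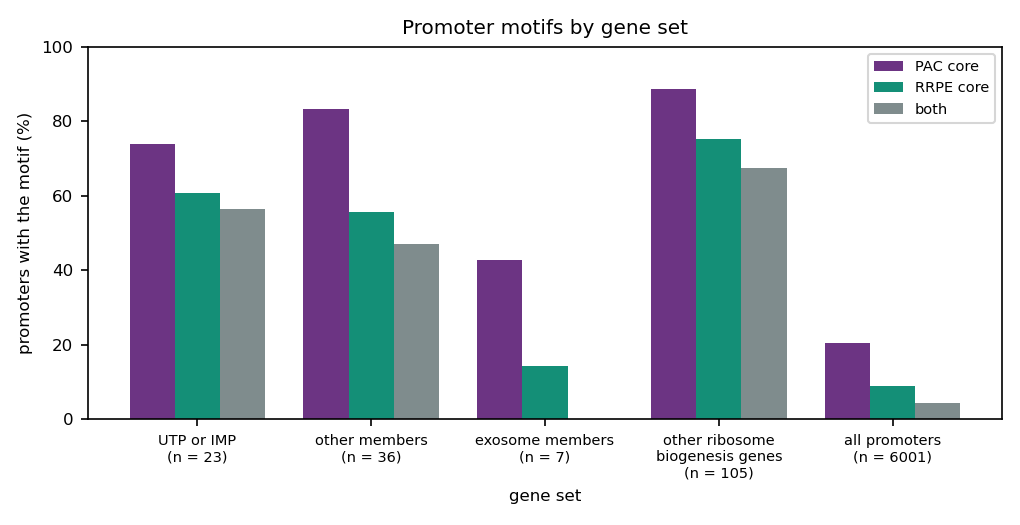
Share of promoters (%) with the PAC core, the RRPE core or both, in a window of 300 bases, by gene set. Members with a UTP or IMP symbol (73.9% with PAC) and the other members (83.3%) stand above all promoters (20.4%), and exosome members lie between them at 42.9%; these 7 are also counted among the other members.

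The 4 libraries differed widely in how many reads these genes received. Their summed counts were 15590 and 22159 in total RNA replicates 1 and 2, against 483175 and 521058 in the poly(A) replicates. The median member had 140 and 191 counts in total RNA and 6088 and 6704 in poly(A) RNA, so total RNA, in which 3.14% and 3.15% of all counts were on nuclear coding features, set the precision. Of those coding counts the 59 genes took 0.923% and 0.928% in total RNA and 0.916% and 0.982% in poly(A) RNA. BY4741 is of mating type a, and the a-cell genes STE2, STE6, BAR1, MFA1 and MFA2 had at least 10.2 normalised CPM in every library, while the alpha-cell genes MF(ALPHA)1, MF(ALPHA)2 and STE3 had at most 0.967 and SAG1 3.88 to 9.89.

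All 59 genes passed the filter on low counts and were tested for a difference between poly(A) and total RNA. The test was edgeR's quasi-likelihood test with Benjamini-Hochberg adjustment over 6945 features, called at an adjusted p of 0.05. Normalised CPM are counts relative to library size scaled by TMM, so a fold change is relative to the typical feature. The data are from bulk cultures, so for a gene's level, more cells and more RNA per cell cannot be told apart. The fold change compares poly(A) RNA with total RNA, not growth conditions. In poly(A) RNA 26 of the 59 genes were higher (44.1%), 15 were lower (25.4%) and 18 did not pass. Over all features tested, 31.0% were higher and 31.2% lower. The median log2 fold change of the 59 was 0.17, against 0.044 over all features, and single values ran from -2.23 to 1.32. In 51 of the 59 genes the poly(A) libraries did not overlap the total RNA libraries, and 10 of the 51 did not pass the test. This separation was not counted over all features, so it is not read as a trait of these genes.

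Highest among the 59 was IMP4, a partner of IMP3 and MPP10 that helps U3 pair with the pre-rRNA. It stood at 14.0 and 13.6 normalised CPM in the total RNA replicates and at 31.8 and 37.1 in the poly(A) replicates, which is 1.32 on the log2 scale (SE 0.11, adjusted p = 1.41e-09). UTP23, which is needed for release of the snoRNA snR30 from the pre-rRNA, had 6.43 and 7.52 against 17.0 and 17.9 (log2 fold change 1.31, SE 0.13). Both poly(A) values lay far above both total RNA values in each gene. RRP15, an early large-subunit factor, had 5.51 and 5.32 against 12.5 and 13.7 (log2 fold change 1.28, SE 0.14). UTP11, a processome protein, had 8.15 and 7.94 against 16.2 and 18.5 (1.11, SE 0.13). RRP1, another large-subunit factor, had 11.4 and 8.11 against 18.0 and 20.6 (1.01, SE 0.14). IMP2, a mitochondrial peptidase subunit, completed the highest 6 with 1.61 and 1.44 against 2.98 and 3.07 (1.00, SE 0.24), on only 14 and 17 counts in total RNA. Its partner IMP1 had 4.59 and 3.72 against 7.32 and 8.37 (0.94, SE 0.17). None of the 6 highest genes was longer than 873 bp. IMP21, the third gene outside ribosome assembly, had 8.15 and 7.10 against 7.09 and 6.998 (-0.10, SE 0.14) and did not pass.

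At the other end, UTP20 was the lowest of the 59. It encodes a very large helical repeat protein of the processome. Its levels were 166.7 and 173.9 normalised CPM in total RNA and 35.4 and 37.4 in poly(A) RNA, 4.68-fold lower (log2 fold change -2.23, SE 0.08, adjusted p = 3.01e-16). UTP10, the largest UTP-A subunit, fell from 123.5 and 130.9 to 36.8 and 37.3 (-1.78, SE 0.08). RRP5, an RNA-binding protein needed for both subunits, had 223.9 and 244.3 against 70.3 and 78.5 (-1.66, SE 0.08). The mRNAs of these 3 genes were among the longest of the set, with 7482, 5310 and 5190 bp of gene. UTP22, a UTP-C subunit, had 92.1 and 94.5 against 33.6 and 35.4 (-1.44, SE 0.08). RRP12, a repeat protein needed for export of both subunits, had 94.3 and 97.7 against 41.6 and 41.4 (-1.21, SE 0.08). They are 3714 and 3687 bp long.

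RRP14 broke this pattern. It encodes a relative of the mammalian nucleolar protein SURF6 and acts in early pre-rRNA processing, and its gene (YKL082C, chrXI:281025-282329) is only 1305 bp long. RRP14 had 13.3 and 12.7 normalised CPM in total RNA and 2.95 and 3.40 in poly(A) RNA (log2 fold change -2.03, SE 0.14, adjusted p = 2.23e-11). In counts these were 116 and 150 in total RNA against 975 and 1144 in poly(A) RNA. RRP14 shares part of its length with YKL083W, for which the reference gives no entry, and the reads of the shared part are in a row of their own with 160 and 189 against 1463 and 1672 counts. That row was low in poly(A) RNA too: with it added to RRP14, the log2 fold change was -1.93 (SE 0.11). Of 2218 coding genes of at least 1000 and under 2000 bp, 46 (2.07%) had a lower value than RRP14. None of its 50-base stretches occurred elsewhere in the genome, and the same held for all 59 genes.

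**Figure D2:**
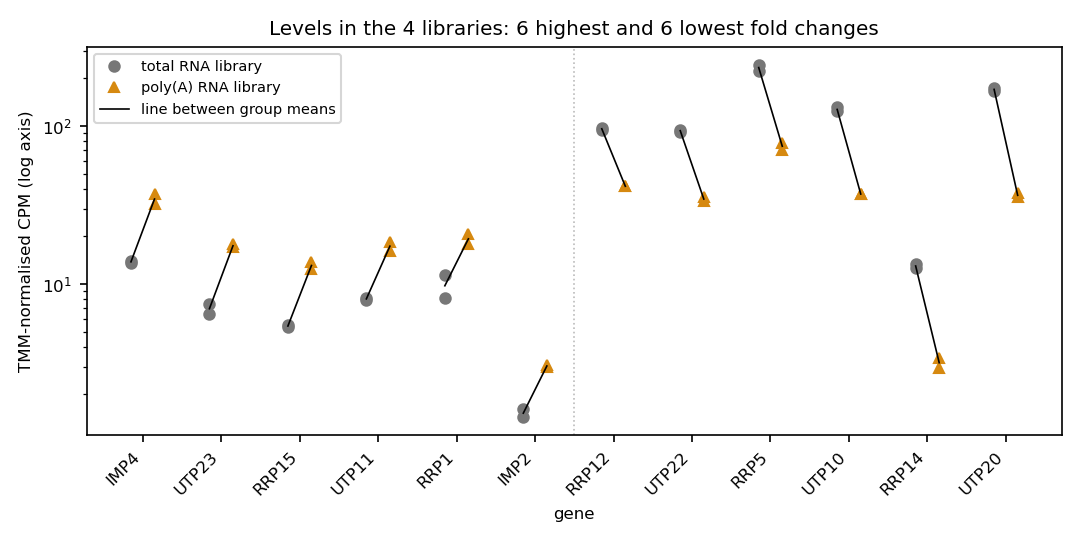
TMM-normalised CPM (log axis) in each of the 4 libraries for the 6 genes with the highest and the 6 with the lowest log2 fold change among those past the test; circles are total RNA, triangles are poly(A) RNA and lines join the group means. In all 12 genes the fractions do not overlap, from IMP4 (13.6 to 37.1) on the left to UTP20 (35.4 to 173.9) on the right. The 12 were chosen by fold change and test in these same libraries, so this separation follows from the choice.

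The small-subunit processome and the other members were then compared. The 23 UTP and IMP genes had 7 calls of higher (30.4%) and 10 of lower (43.5%), and their median log2 fold change was -0.031. The 36 others had 19 (52.8%) and 5 (13.9%), and their median was 0.26. Against 31.0% higher and 31.2% lower over all features, the share of UTP and IMP genes that were higher was near the background. The difference of medians was -0.29, and -0.64 among the 48 members with at least 10 CPM in 2 libraries. The UTP and IMP genes took 44.3% of all member counts in each total RNA library, against 34.4% and 35.1% in the poly(A) libraries. Without UTP20, UTP10 and UTP22, left out after their values were seen, the shares were 29.1% and 29.1% against 29.2% and 30.1%. These had the lowest fold changes of the UTP and IMP genes, and RRP5 and RRP12, also long and lower, were kept. The closer shares thus follow from the choice of genes and are not read as a result. With IMP1, IMP2 and IMP21 left out, a choice made after the data were seen, 5 of 20 were higher, 10 were lower and the median was -0.12. Grouped by role instead of symbol, the 29 small-subunit genes had 7 higher (24.1%) and 11 lower (37.9%) with a median of -0.012. The 27 large-subunit, exosome and shared genes had 17 higher (63.0%) and 4 lower (14.8%) with a median of 0.31. Genes are not replicates, so these groups are described without a p-value.

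UTP-A is the subcomplex that binds the 5′ end of the pre-rRNA first. Of its 6 subunits on the list UTP9 was higher at 0.77 (SE 0.10), and UTP8, UTP15 and UTP10 were lower at -0.22, -0.48 and -1.78 (SE 0.09, 0.10 and 0.08). UTP4 and UTP5 had -0.012 and -0.031 and did not pass. UTP9 stood at 18.4 and 17.1 normalised CPM in total RNA and 29.2 and 31.1 in poly(A) RNA. As fitted, subunits of 1 subcomplex thus moved in opposite directions. The call of UTP8 was lost without poly(A) replicate 1 (-0.11) and without total RNA replicate 2 (-0.17), and also with no filter on low counts (-0.20) and in DESeq2's Wald test (-0.24). The remaining UTP-A subunit, NAN1, had -1.04 (SE 0.08). The 6 on the list had a median length of 2037 bp, and 64.7% of coding genes from 2000 to under 3000 bp were lower. With the trend of fold change with gene length removed, UTP9, UTP8, UTP4 and UTP5 were higher and UTP15 was lower. UTP8 then had 0.31, and UTP10 had -0.019 and did not pass.

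In UTP-B, which joins after UTP-A and contacts U3, 3 of 4 subunits were lower. The 4 had a median length of 2119.5 bp, and 64.7% of coding genes from 2000 to under 3000 bp were lower. UTP21 had 64.7 and 69.4 normalised CPM against 41.5 and 46.3 (-0.61, SE 0.09). UTP18, which recruits the exosome's helicase, had -0.45 (SE 0.12) and UTP13 -0.45 (SE 0.09). UTP6 had 8.15 and 7.77 against 7.91 and 8.97, with overlapping libraries and a log2 fold change of 0.088 (SE 0.14). PWP2 and DIP2, the UTP-B subunits whose symbols lie outside the pattern, were also lower, at -0.80 and -0.60 (SE 0.09 for both). In UTP-C, UTP22 was lower while its partner RRP7, at 19.8 and 19.9 against 22.1 and 22.1, had 0.16 (SE 0.10) and did not pass. In the Mpp10 complex IMP3 had 6.20 and 5.24 against 7.03 and 7.23, which gave 0.33 (SE 0.15, adjusted p = 0.0556), and MPP10 had 0.17 (SE 0.10).

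The other 15 small-subunit genes had 5 higher (33.3%), 4 lower (26.7%) and a median of 0.17. These shares were near the 31.0% and 31.2% over all features. NOP19 and NOP6, assembly proteins of the early particle, had 0.89 and 0.54 (SE 0.15 and 0.13), and UTP30, a protein related to ribosomal protein L1, had 0.41 (SE 0.14). UTP25, which resembles a helicase, and UTP14, which activates the helicase ECM16, were lower at -0.40 and -0.49 (SE 0.10 and 0.09). The call of UTP30 was lost without total RNA replicate 2 (0.32) or poly(A) replicate 2 (0.37) and in DESeq2's Wald test (0.39), and that of UTP25 without poly(A) replicate 1 (-0.28). NOC4 and NOP14 form a dimer, yet NOC4 fell from 29.5 and 28.7 to 14.8 and 16.5 (-0.90, SE 0.10) while NOP14 had 29.6 and 28.8 against 29.5 and 32.2 (0.079, SE 0.09). Within the dimer, then, NOC4 separated cleanly between fractions and NOP14 overlapped. The helicase RRP3, the U3 protein RRP9, UTP7, NOP9 and RRP36 did not pass, with values from -0.12 to 0.47.

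Large-subunit factors were mostly higher, 11 of 18 (61.1%), with 2 lower (11.1%) and a median of 0.28. Over all features 31.0% were higher and 31.2% lower. The 18 had a median length of 1374 bp. Of coding genes from 1000 to under 2000 bp, 31.1% were higher and 29.2% lower. NOP7, the scaffold of a complex with ERB1 and YTM1, had 80.6 and 75.9 normalised CPM in total RNA and 143.9 and 146.1 in poly(A) RNA (log2 fold change 0.89, SE 0.08, adjusted p = 2.04e-09). Its partner YTM1 had 0.24 (SE 0.10) and ERB1 was lower at -0.66 (SE 0.09). RRB1, the chaperone of ribosomal protein Rpl3, had 65.1 and 73.8 against 95.4 and 106.4 (0.54, SE 0.09). NOP15, which binds the internal spacer, and NOP12, an RNA-binding protein, were higher by 0.76 and 0.61 (SE 0.13 and 0.11). NOP53, NOP13, RRP8, NUG1 and NOC3 were also higher, with values from 0.25 to 0.43. The call of NOP13 was lost without total RNA replicate 1 (0.22) or poly(A) replicate 2 (0.33), and also when the reads it shares with YNL174W were added (0.17). That of RRP8 was lost without total RNA replicate 2 (0.27) or poly(A) replicate 2 (0.29), and that of NUG1 without total RNA replicate 1 (0.15). NOC3 lost its call without total RNA replicate 1 (0.20), total RNA replicate 2 (0.31) or poly(A) replicate 2 (0.20). In DESeq2's Wald test NOP13, NUG1 and NOC3 did not pass.

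NOP2, a methyltransferase of 25S rRNA, was close to level between fractions at 63.2 and 64.8 against 70.3 and 69.1 (0.12, SE 0.08), and did not pass. NOP4, NOP8, NOC2 and the exonuclease gene RRP17 did not pass either, with values from -0.11 to 0.14. RRP17 had only 31 and 26 counts in total RNA, and its SE of 0.22 was among the widest. NOP16, an early large-subunit factor of 696 bp, was lower at 15.6 and 17.2 against 13.2 and 13.3 (-0.32, SE 0.11). NOP16 was the only member under 1000 bp with a call of lower, but that call was lost without total RNA replicate 2 (-0.24), poly(A) replicate 1 (-0.27) or poly(A) replicate 2 (-0.31).

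Exosome genes on the list were higher in 6 of 7 (85.7%), with 0 lower and a median of 0.47. Over all features 31.0% were higher. The 7 had a median length of 918 bp, and 55.3% of coding genes under 1000 bp were higher. The cap subunit RRP4 had 9.19 and 7.77 normalised CPM in total RNA and 15.3 and 16.6 in poly(A) RNA (0.92, SE 0.13, adjusted p = 1.71e-06). The ring subunits RRP43, RRP45, RRP46 and RRP42 had 0.78, 0.71, 0.47 and 0.27, and the cap subunit RRP40 had 0.38. RRP6, the nuclear exonuclease and at 2202 bp the longest of the 7, had 27.3 and 29.1 against 27.4 and 27.2 (-0.050, SE 0.09). All exosome genes but RRP6 had both poly(A) libraries above both total RNA libraries, a separation that was not counted over all features. The call of RRP46 was lost without total RNA replicate 2 (0.23). That of RRP42 was lost without total RNA replicate 1 (0.19) or poly(A) replicate 1 (0.28), and in DESeq2's Wald test (0.24). With the trend of fold change with gene length removed, RRP46, RRP40 and RRP42 had -0.099, -0.15 and -0.19 and did not pass, while RRP6 was higher at 0.50. Of 7 exosome genes and cofactors outside the pattern, CSL4 and MTR3 were higher at 1.19 and 0.53, and the nuclease DIS3 and the helicase MTR4, of 3006 and 3222 bp, were lower at -0.74 and -0.64.

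**Figure D3:**
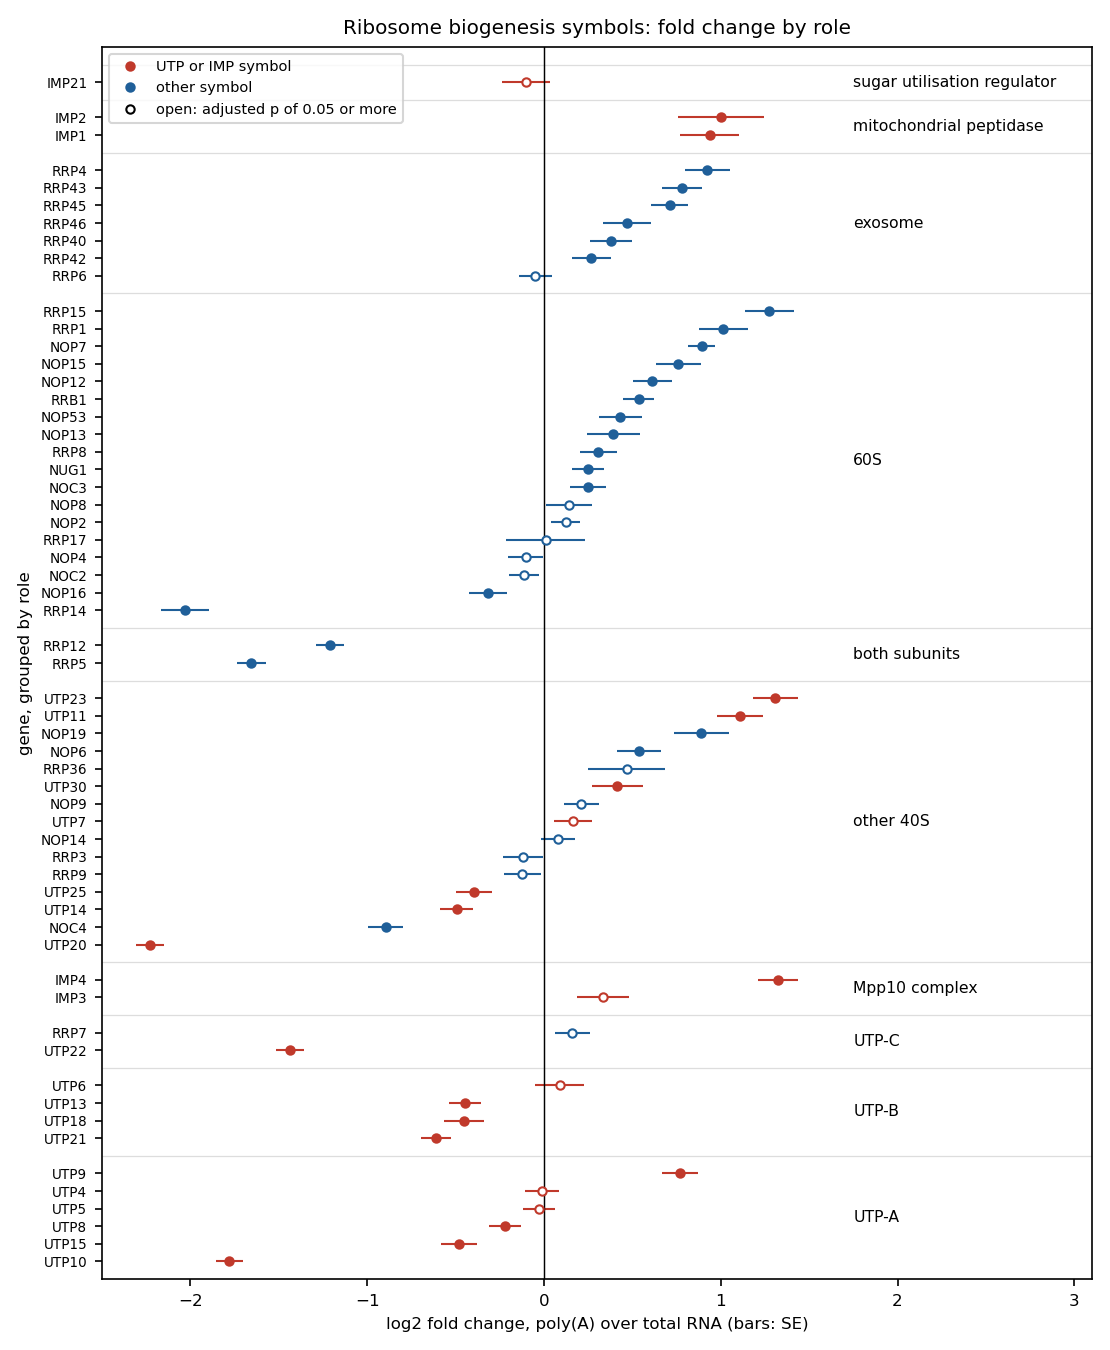
Log2 fold change of poly(A) over total RNA for all 59 genes, with SE bars, grouped by role; red marks a UTP or IMP symbol, blue any other, and open circles did not pass the test. Exosome genes (median 0.47) and large-subunit genes (0.28) lie mostly to the right, and UTP-B (-0.45) mostly to the left.

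Gene length moved with the fold change. Across the 59 genes the Spearman correlation of log2 fold change with length was -0.70, and over 5781 coding genes with a known length it was -0.60. It was -0.86 within the UTP and IMP genes and -0.54 within the others. The genes share the same 4 libraries, so these correlations are given as a description. Of the 20 members under 1000 bp, 15 were higher and 1 lower (median 0.62). Of the 2282 coding genes of that length 55.3% were higher and 9.29% lower (median 0.55). Of the 23 members from there to under 2000 bp, 11 were higher and 4 lower (median 0.17), against 31.1% and 29.2% of coding genes (median 0.042). Of the 11 members from 2000 to under 3000 bp, 0 were higher and 5 lower (median -0.11), against 3.13% and 64.7% of coding genes (median -0.48). All 5 members of 3000 bp or more were lower (median -1.66), as were 95.6% of coding genes of that length (median -1.26), so this count was near the background. Why longer genes were lower was not tested.

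The symbol groups differed in length as well as in fold change. The UTP and IMP genes had a median length of 1728 bp and the others of 1336.5 bp. Among genes under 1000 bp, 6 of 7 UTP and IMP genes were higher, as were 9 of 13 others, with medians of 1.00 and 0.47. From 1000 to under 2000 bp the medians were -0.031 (7 genes) and 0.28 (16 genes), and from 2000 to under 3000 bp -0.42 (6 genes) and -0.050 (5 genes). The UTP and IMP genes were thus the higher group among the shortest genes and the lower group in both middle classes. From 3000 bp up, UTP20, UTP10 and UTP22 had a median of -1.78, and RRP5 and RRP12 had -1.43.

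**Figure D4:**
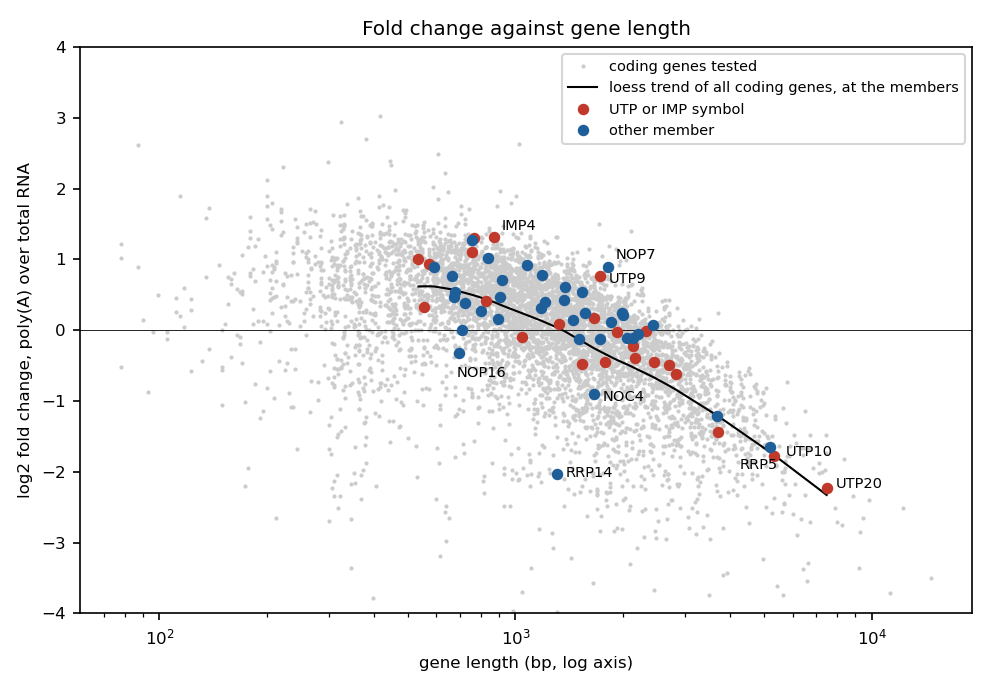
Log2 fold change against gene length (bp, log axis) for coding genes (grey, with 48 genes outside the axis limits of -4 and 4), UTP and IMP genes (red) and other members (blue); the black line is the loess trend of all coding genes. UTP20, UTP10 and RRP5 lie close to the trend, while RRP14 lies 2.07 below it and NOP7 1.25 above it.

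With the trend of all coding genes with length removed from the fit, the difference between the symbol groups shrank from -0.29 to -0.051. The median was then 0.23 for the UTP and IMP genes, with 11 higher and 3 lower, and 0.28 for the others, with 17 higher and 3 lower. Within length classes the medians still differed, and not in the same direction. Under 1000 bp they were 0.39 for the UTP and IMP genes and -0.028 for the others. From 1000 to under 2000 bp they were 0.062 and 0.43, and from 2000 to under 3000 bp 0.26 and 0.505. From 3000 bp up they were -0.019 and 0.032. In that fit 31.1% of 5781 coding genes were higher and 23.8% lower, against 28 and 6 of the 59 genes. Only 15 of the 26 higher calls and 5 of the 15 lower calls were the same as before, while 9 genes that had not passed became higher and 1 became lower. The 11 higher calls that were lost were those of IMP1, IMP2, NOP6, NOP13, NOP15, NOP19, RRP8, RRP40, RRP42, RRP46 and UTP30, with values from -0.19 to 0.39. UTP20, UTP10, RRP5 and RRP12 no longer passed, at 0.10, -0.019, 0.069 and -0.0039, and neither did UTP18 and UTP25, at -0.12 and 0.14. UTP22 still passed, at -0.22 (SE 0.08). UTP8, UTP13, UTP14 and UTP21 turned from lower to higher, at 0.31, 0.22, 0.29 and 0.23. By role, the 29 small-subunit genes then had 13 higher and 3 lower (median 0.17), and the 27 large-subunit, exosome and shared genes 15 and 2 (median 0.38).

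The genes furthest from the length trend were NOP7 at 1.25 (SE 0.08), UTP9 at 1.07 (SE 0.10) and IMP4 at 0.93 (SE 0.11) on the upper side. On the lower side were RRP14 at -2.07 (SE 0.14), NOP16 at -0.86 (SE 0.10) and NOC4 at -0.64 (SE 0.10). All 6 passed with the trend removed as well as without it. The other lower calls with the trend removed were IMP21, UTP15 and UTP22, from -0.34 to -0.22. Among the 105 other ribosome biogenesis genes, the lowest with the trend removed were the large-subunit factors MAK16, TIF6 and DBP6 at -1.12, -1.04 and -1.02.

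**Figure D5:**
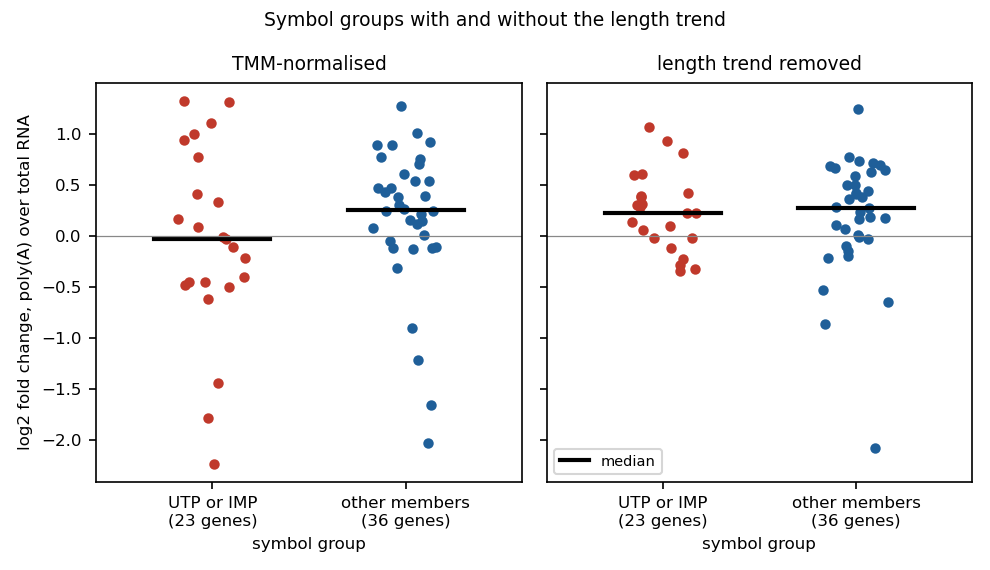
Log2 fold change of each of the 23 UTP and IMP genes and the 36 other members, as fitted (left) and with the length trend of all coding genes removed (right); black bars are medians. The medians are -0.031 and 0.26 on the left and 0.23 and 0.28 on the right.

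Zero itself depended on the scaling. With scaling to the sum of nuclear coding counts the median of all features was 0.37 in place of 0.044, and 39 members were higher and 8 lower. Relative to that median the members kept their order, and the difference between symbol groups was again -0.29. The 8 that stayed lower were UTP20, RRP14, UTP10, RRP5, UTP22, RRP12, NOC4 and UTP21. UTP13, UTP14, UTP15, UTP18 and UTP25 no longer passed, and UTP8 and NOP16 had values above 0. With library totals the median of all features was 5.34 and all 59 members were higher.

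Levels were compared between genes as normalised CPM per kb of gene length, with the reads of shared parts added for the 6 members that have such rows. In poly(A) RNA NOP7 had the highest level of the 59, 79.8 ± 0.85 (SD, n = 2), followed by RRB1 with 65.7 ± 5.04 and IMP4 with 39.5 ± 4.26. The lowest were RRP36 with 4.55 ± 0.76, UTP20 with 4.87 ± 0.19 and IMP2 with 5.67 ± 0.12. RRP36 and UTP20 did not differ beyond their spread. RRP36 itself had 3.22 and 2.79 normalised CPM in total RNA and 3.63 and 4.59 in poly(A) RNA, on as few as 28 counts. The median was 14.4 in each fraction. For coding genes, counted on single rows without the reads of shared parts, it was 7.31 in total and 6.95 in poly(A) RNA.

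The order of levels differed between fractions. In total RNA RRB1, RRP5 and NOP7 led, with 45.2 ± 3.98, 45.1 ± 2.78 and 43.0 ± 1.84 per kb, values that lay within each other's spread. RRP5 held rank 2 of 59 in total RNA and rank 31 in poly(A) RNA, where it had 14.3 ± 1.12. RRP12 went from rank 5 to 41 and UTP22 from rank 7 to 48. UTP10 went from rank 8 to 51 and RRP14 from rank 11 to 56. UTP20, among the lowest in poly(A) RNA, held rank 12 in total RNA with 22.8 ± 0.67 and rank 58 in poly(A) RNA. NOP2 held rank 4 in both, with 34.5 ± 0.63 and 37.5 ± 0.46. UTP-A subunits spanned 10.3 to 23.9 per kb in total RNA and 6.98 to 17.4 in poly(A) RNA, up to 2.50-fold in the latter. The order was not the same in both fractions. UTP10, of 5310 bp, was the highest of these subunits in total RNA and the lowest in poly(A) RNA.

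The remaining genes of the pathway were taken from a list of 107, of which 105 had a row. Of these, 44 were higher (41.9%), 29 were lower (27.6%) and 32 did not pass, and the median was 0.17. Over all features 31.0% were higher and 31.2% lower. The 43 small-subunit genes had 19 higher and 12 lower (median 0.18), and the 55 large-subunit genes had 23 higher and 15 lower (median 0.11). The highest were SLX9, a small-subunit export factor, at 1.47 (SE 0.14), NIP7, a large-subunit factor, at 1.31 (SE 0.13) and CSL4, an exosome cap subunit, at 1.19 (SE 0.12). The lowest were URB1, a large-subunit factor of 5295 bp, at -1.77 (SE 0.08), the helicase DBP6 at -1.42 (SE 0.10) and the processome protein SAS10 at -1.37 (SE 0.10). Length correlated with fold change at a Spearman value of -0.71 across these 105 genes.

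Position and coding sequence were also examined. Among the 59 genes and the 105 others, 164 in all, 8 pairs were direct neighbours in the annotation. The only pair of 2 members was RRP15 and NOC4 on chromosome XVI, which face each other 689 bp apart and had 1.28 and -0.90. UTP13 and RSA3, in tandem on chromosome XII, had -0.45 and 1.13, and UTP9 and RIX1, in tandem on chromosome VIII, had 0.77 and -0.11. RRP3 and SSF1, a divergent pair, had -0.12 and 0.33. RIX1 and RRP3 did not pass. The other 4 pairs had the same sign, among them NOC3 and CMS1 at 0.25 and 0.79, so the 8 pairs divided evenly. With the length trend removed, 5 pairs had the same sign and 3 the opposite, and RRP15 and NOC4 were still opposite at 0.77 and -0.64. None of the 59 genes had an intron, against 267 of the 5771 coding genes compared. Their median GC content was 38.4%, against 39.8% for those coding genes. The longest run of A in the coding strand was 4 to 11 bases, with a median of 7 against 6, and its Spearman correlation with fold change was -0.097.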

How the data were processed

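The authors deposited a table of raw read counts, with a row for each feature and a column for each of the 4 libraries. The submitters' processing notes list FastQC 0.11.8, cutadapt 1.18, Bowtie2 2.3.4.3 and build R64, with no role for any. How reads were assigned to features, by strand or with several matches, is not given in the sources used here. The table has 7382 rows; 622 are joined names that hold reads of overlapping features, and 5 lines were empty. Symbols, lengths and coordinates came from RefSeq R64, which matched 5901 of 6760 single rows, and all 59 members matched. Lengths are those of the annotated gene, without untranslated ends.

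Library totals were 53746838, 75955489, 52851542 and 53180654 counts for total RNA replicates 1 and 2 and poly(A) replicates 1 and 2. Counts were tested with edgeR 4.0.16 in R 4.3.3 (filterByExpr, TMM, quasi-likelihood F test, Benjamini-Hochberg at 0.05). The TMM factors were 0.162, 0.156, 6.25 and 6.34 in the same order. Each SE is the size of the log2 fold change over the root of its F value. The procedure was tested on simulated data. Alternatives included DESeq2 1.42.0, and a loess trend on log2 length (span 0.5) entered as an offset, fitted on coding genes with a length. Members, lists and tests were chosen with earlier results of these data known. Of 107 listed pathway genes 105 had a row. The genes named were the extremes in fold change overall and per role, the extremes in level and IMP1 to IMP4. Others named in the text, among them NOP16, NOC4, NOP2, UTP8 and the partners of members, were chosen after their values were seen.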

Additional observations from a re-analysis of the deposited data

How the results depend on the processing

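The counts of members that were higher or lower, the counts by symbol group and the group medians stayed close to their reported values with DESeq2 size factors, the DESeq2 Wald test, no filter, coding features only and joined rows added. With each library left out in turn, 22 to 27 members were higher and 12 to 15 lower. UTP and IMP genes then had 6 to 8 higher and 8 to 10 lower with medians from -0.08 to 0.03. The others had 15 to 20 higher and 4 to 5 lower with medians from 0.21 to 0.33. The difference of medians ran from -0.35 to -0.27. Other ribosome biogenesis genes had 37 to 47 higher and 23 to 28 lower. Outside library totals, the coding sum and the length trend, 31 of the 41 called members kept their call and direction in every setting that tested them, 19 of them higher and 12 lower.

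Library totals gave 59 members higher and 0 lower, 23 and 0 UTP and IMP genes (median 5.28), 36 and 0 others (median 5.57), and 105 and 0 other ribosome biogenesis genes. Under them the following turned positive: UTP4 5.30, UTP5 5.28, RRP6 5.26, IMP21 5.21, NOP4 5.21, NOC2 5.20, RRP3 5.19, RRP9 5.19, UTP8 5.09, NOP16 4.99, UTP25 4.91, UTP13 4.86, UTP18 4.86, UTP15 4.83, UTP14 4.82, UTP21 4.70, NOC4 4.41, RRP12 4.10, UTP22 3.87, RRP5 3.65, UTP10 3.53, RRP14 3.28, UTP20 3.08, URB1 3.54, DBP6 3.89 and SAS10 3.94. This is a shift of all features by the scaling. Scaling to the coding sum gave 8 members lower, 12 UTP and IMP genes higher and 4 lower (median 0.29), a median of 0.58 for the others, and 69 higher and 15 lower among other ribosome biogenesis genes. UTP4, UTP5, RRP6, NOC2, UTP8 and NOP16 then had 0.31, 0.29, 0.27, 0.21, 0.10 and 0.0070.

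With the length trend removed, 6 members were lower, 11 UTP and IMP genes higher and 3 lower (median 0.23), 3 others lower, the difference of medians was -0.051, and 12 other ribosome biogenesis genes were lower. Values that changed sign were NOP6 -0.028, RRP46 -0.099, UTP30 -0.023, RRP40 -0.15, RRP42 -0.19, UTP4 0.60, UTP5 0.39, RRP6 0.50, NOP4 0.38, NOC2 0.41, UTP8 0.31, UTP25 0.14, UTP13 0.22, UTP14 0.29, UTP21 0.23, RRP5 0.069 and UTP20 0.10. At least 10 CPM in 2 libraries kept 48 members, with medians of -0.26 and 0.39 and a difference of -0.64. Fewer genes were compared, and TMM was recomputed on the rows kept, so single values moved too. Of the 48, 5 gained a call, 2 lost theirs and 7 without a call in either fit changed sign. Leaving out IMP1, IMP2 and IMP21, added after the data were seen, gave a difference of -0.38. Counting only bases before the start gave a PAC core in 17.0% of all promoters.

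The replicate numbers were not stated to link the fractions. Deviations of same-numbered libraries correlated at 0.26 over 4175 coding features and at -0.17 over the members, and a replicate block gave 27 members higher and 15 lower, with RRP36 added at 0.48. Total RNA counts limited precision: members with under 50 counts in a total RNA library, such as IMP2, RRP17 and RRP36, had the widest errors.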
